A study of Mus musculus with 22 samples.

Results

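The 9 genes described here encode the transcription factors that set up and mature the oligodendrocyte lineage: Olig1, Olig2, Nkx2-2, Sox10, Sox8, Myrf, Nkx6-2, Zfp488 and St18. They were taken by name for their known place in that lineage, out of 37786 genes in the count table, and all 9 passed the minimum of 10 counts in at least 10 mice. Counts came from the anterior cingulate cortex (ACC), dissected as bulk tissue, in 22 male C57BL/6J mice with the genotype label wildtype, 8 weeks old when the experiments began. All of them, controls included, had received an AAV5 vector carrying channelrhodopsin and EYFP under the CaMKIIa promoter in the basolateral amygdala (BLA) on both sides and an optic fibre over the ACC on one side. The CaMKIIa promoter limits the opsin to excitatory neurons, and the fibre lit the axons that these send into the ACC. In the 10 stimulated mice (stim) blue light was given in 9 sessions, and in the 12 control mice (ctrl, no light) the same procedure was run with the light off. The comparison asks whether repeated activation of the BLA–ACC pathway altered the expression of these factors in the ACC.

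Oligodendrocytes are the myelinating glia of the brain and arise from progenitors that persist in the adult cortex. Olig2, Sox10 and Nkx2-2 act from the progenitor onwards, Myrf is switched on when a progenitor leaves the cell cycle and differentiates, and Sox10 and Myrf together drive the genes of the myelin sheath. In bulk tissue, fewer cells of a type and less RNA per cell cannot be told apart.

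Library totals were 24563116 to 36542883 counts in controls (median 31797782) and 23090483 to 43668462 in stimulated mice (median 32917051). In library numbers 1 to 11 the mitochondrial share of counts had a median of 2.52% in controls (1.63 to 4.81%) and 2.21% in stimulated mice (1.79 to 2.80%). Controls 1, 2 and 3, at 3.045 to 4.808%, lay above every stimulated mouse of that run. In 12 to 23 the medians were 1.51% (1.04 to 1.90%) and 1.05% (0.982 to 1.80%), and the ranges overlapped in both runs. Its part in the group differences was not tested. The libraries were numbered 1 to 11 and 12 to 23, with no number 7, and the expression of most genes differed between these runs of numbers: 68.1% of the 17524 genes tested differed at an adjusted p under 0.05 in edgeR. The study used 2 cohorts of mice, but the labels do not say which mouse belonged to which, so the runs are named here only by their numbers. Library numbers 1 to 11 hold 6 controls and 4 stimulated mice, and 12 to 23 hold 6 of each. Within each run the controls have the lower numbers and the stimulated mice the higher, so group and library order cannot be told apart. In library numbers 12 to 23, controls 9 and 11 stood apart in oligodendrocyte genes. The summed level of 17 myelin and mature oligodendrocyte genes was 20295 CPM (counts of a gene as parts per 1000000 of the library's scaled total) in control 9 and 14912 CPM in control 11, against 2437 to 5514 CPM in the other 10 mice of that run. For this reason the group differences of the 9 factors are given below over all mice, within each run, and without these 2 controls. Both are controls picked for high values in these same counts. Leaving them out therefore raises the fold changes of genes that are high in them.

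Per length of exon the factors spanned a wide range of levels, as the plot of levels per length shows. Olig1, a basic helix-loop-helix factor needed for maturation and remyelination, was the most abundant, with a median of 58.9 CPM per kb over the 22 mice. Sox8, an HMG-box factor that astrocytes also express, followed at 16.2 CPM per kb. Olig2, the helix-loop-helix factor that specifies the lineage, was at 8.65 CPM per kb. Sox10, the close relative of Sox8 that is present throughout the lineage, was at 6.54 CPM per kb. Nkx6-2, a homeodomain protein of myelinating cells, was at 4.52 CPM per kb. Myrf, a membrane-bound protein whose released fragment turns on myelin genes, was at 1.39 CPM per kb. Zfp488, a zinc finger partner of Olig2, had a median of 0.789 CPM per kb. Nkx2-2, a homeodomain factor of progenitors and differentiating cells, was at 0.590 CPM per kb, and St18, a zinc finger factor of the Myt1 family, at 0.387 CPM per kb. Olig1 was above Sox8, Sox8 above Olig2, Nkx6-2 above Myrf and Myrf above Zfp488 in 22 of 22 mice. Olig2 was above Sox10 in 19 mice and Sox10 above Nkx6-2 in 20. Of the 3 least abundant factors, Nkx2-2 was not clearly separated from the others over all mice. Zfp488 was above Nkx2-2 in 15 of 22 mice and Nkx2-2 above St18 in 14. In library numbers 1 to 11, Nkx2-2 was above Zfp488 in 7 of 10 mice. Zfp488 was above St18 in 10 of 10 mice of library numbers 1 to 11 and in 10 of 12 of 12 to 23. The median counts per mouse of these 3 factors were 120.5 for Zfp488, 53.5 for Nkx2-2 and 82.0 for St18, against 4264 for Olig1.

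**Figure D1:**
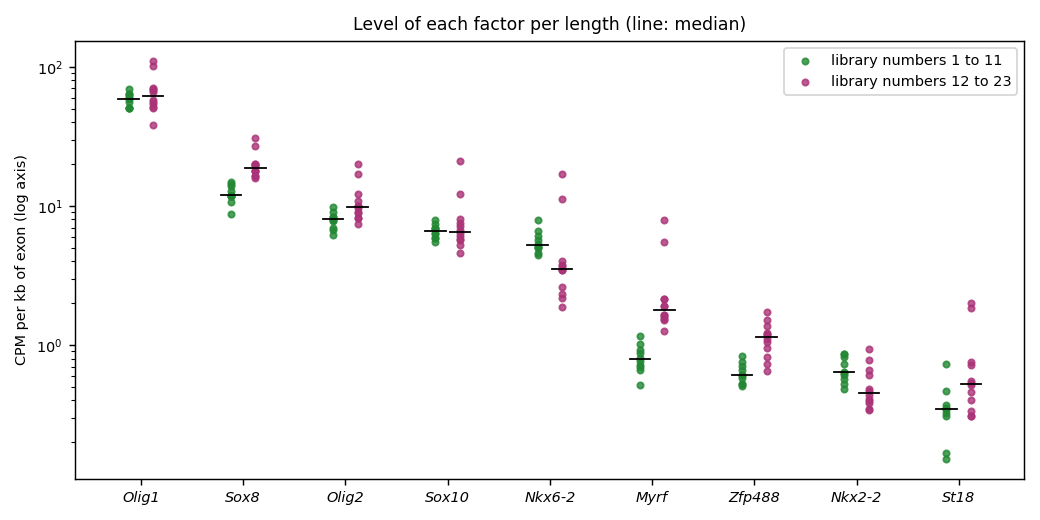
Level of each factor in CPM per kb of exon (log axis), ordered by the median over 22 mice; each point is a mouse, coloured by run of library numbers, and each line is the median of that run. Olig1 lies highest at a median of 58.9 CPM per kb and St18 lowest at 0.387, and Myrf is higher in library numbers 12 to 23 than in 1 to 11.

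Between the runs of library numbers, with group in the model, 5 of the 9 factors differed at an adjusted p under 0.05 in edgeR, all higher in 12 to 23. Myrf was higher by 1.60 (log2, SE 0.27, adjusted p = 9.06e-06), St18 by 1.02 (SE 0.28, adjusted p = 0.00249), Zfp488 by 0.84 (SE 0.15, adjusted p = 1.93e-05), Sox8 by 0.70 (SE 0.11, adjusted p = 2.48e-06) and Olig2 by 0.49 (SE 0.13, adjusted p = 0.00209). Olig1 and Sox10 had log2 differences of 0.19 and 0.27, and Nkx6-2 and Nkx2-2 of -0.23 and -0.36, with edgeR adjusted p-values from 0.0644 to 0.458. A share of 5 in 9 is near the 68.1% over all genes. The order of the factors was the same in both runs from Olig1 to Myrf, whereas Nkx2-2 had the lowest median in 12 to 23 and St18 in 1 to 11.

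In the annotation of GRCm38 (GENCODE M21), Olig2 lies at chr16:91225457-91228677 and Olig1 on the same strand at chr16:91269772-91271933. Olig1 is a gene of 1 exon and Olig2 of 2. Sox10 is on the minus strand at chr15:79154908-79165240, Sox8 at chr17:25565892-25570686, Myrf at chr19:10208272-10240748 and Nkx6-2 at chr7:139579376-139582797, all on the minus strand. Nkx2-2 (chr2:147177546-147194243) and Zfp488 (chr14:33967070-33978764) are also on the minus strand, and St18 is on the plus strand at chr1:6487231-6860940. Of the exons of Sox8, 329 bases are shared with the antisense gene 2810468N07Rik, which had 625 to 2199 counts per mouse. Nkx6-2 shares 246 bases with Inpp5a on the opposite strand (1399 to 2827 counts), and Nkx2-2 shares 278 with Nkx2-2os (21 to 94 counts). The library kit does not mark strand, so reads from these stretches cannot be assigned to one gene or the other.

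The promoters of the factors were read for the short sequences that these protein families are known to bind. Promoter sequence from RefSeq (GRCm38.p6) was at hand for 5 of the 9, namely Olig2, Sox8, Nkx6-2, Nkx2-2 and Zfp488. The 250 bases before each RefSeq start site were searched on both strands for the E-box CAGNTG, for the SOX-type words AACAAT and ACAAAG, and for the MYRF-type word CTGGCAC, and no searched word overlaps another in the windows printed. Of 32851 promoters of the same length, 44.8% hold CAGNTG, 16.5% ACAAAG, 9.42% AACAAT and 4.19% CTGGCAC. A match was found in 3 windows, and those of Nkx6-2 and Nkx2-2 are printed 5′ to 3′ on the strand of the gene, with the match in capitals. In Olig2 (chr16:91225300-91225549, plus strand) AACAAT matches on the opposite strand at position -67 from the start site. In Nkx6-2 (chr7:139582798-139583047, minus strand) CAGNTG matches at -170, and in Nkx2-2 (chr2:147186403-147186652, minus strand) at -220, both also on the strand opposite to the one printed.
Nkx6-2: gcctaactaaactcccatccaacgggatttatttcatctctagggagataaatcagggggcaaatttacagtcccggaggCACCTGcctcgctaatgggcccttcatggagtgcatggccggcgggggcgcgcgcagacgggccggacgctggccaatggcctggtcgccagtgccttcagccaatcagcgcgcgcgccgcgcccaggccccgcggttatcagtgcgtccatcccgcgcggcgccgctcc
Nkx2-2: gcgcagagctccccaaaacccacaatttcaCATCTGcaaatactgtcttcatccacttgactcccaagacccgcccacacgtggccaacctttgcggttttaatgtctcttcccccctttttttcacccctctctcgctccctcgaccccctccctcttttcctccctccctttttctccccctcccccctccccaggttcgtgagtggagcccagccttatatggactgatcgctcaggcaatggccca
The RefSeq start differs from the GENCODE gene start for Olig2, whose match lies inside the GENCODE gene, and for Nkx2-2, whose whole window lies within the span of the GENCODE gene and overlaps its exons in part. The Olig2 window is not printed, since it runs into the annotated first exon. The windows of Sox8 and Zfp488 held none of the 4 words. The GC content of the 5 windows was 66.8% in Olig2, 65.6% in Sox8, 65.2% in Nkx6-2, 61.6% in Zfp488 and 56.4% in Nkx2-2, and the median over all promoters was 52.4%.

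Over all 22 mice, no factor differed between stimulated and control mice after adjustment over the 17524 genes tested (edgeR quasi-likelihood test, adjusted p = 1.0 for each of the 9), and 0.00% of all genes did. The fitted log2 fold changes were below 0 for 9 of 9 factors, where 47.5% of all genes were below 0. At an unadjusted p under 0.05, St18 and Nkx6-2 were lower, 2 of 9 against 2.61% of all genes. The median log2 fold change of the 9 factors was -0.298, and that of all genes 0.00846.

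Among the factors that act from the progenitor onwards, Olig2 was at 17.0 to 51.0 CPM in controls (median 22.8) and at 15.7 to 30.6 in stimulated mice (median 20.6). The groups overlapped, with 7 of 10 stimulated mice under the control median and 1 under every control. Its log2 fold change was -0.26 (SE 0.17, edgeR unadjusted p = 0.135). Olig1 was at 109 to 240 CPM in controls (median 129.5) and at 82.0 to 153 in stimulated mice (median 127.3), a log2 fold change of -0.17 (SE 0.14, edgeR unadjusted p = 0.235). Nkx2-2 was at 0.978 to 2.69 CPM in controls (median 1.83) and 0.993 to 2.36 in stimulated mice (median 1.37), and 8 of 10 stimulated mice were under the control median. Its log2 fold change was -0.30 (SE 0.19, edgeR unadjusted p = 0.130).

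Sox10 was at 16.7 to 64.3 CPM in controls (median 19.5) and at 14.0 to 24.0 in stimulated mice (median 20.8). Its fitted log2 fold change was -0.32 (SE 0.20, edgeR unadjusted p = 0.128), although the median of the stimulated mice was above that of the controls and 4 of 10 lay under the control median. Sox8 was at 27.2 to 95.8 CPM in controls (median 46.5) and at 39.7 to 62.6 in stimulated mice (median 50.5), with a log2 fold change of -0.04 (SE 0.18, edgeR unadjusted p = 0.845). For both SOX factors the highest values were those of controls 9 and 11, which were 64.3 and 37.3 CPM for Sox10 and 95.8 and 83.8 CPM for Sox8.

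Among the factors of differentiation, Myrf was at 5.72 to 67.6 CPM in controls (median 10.4) and at 4.43 to 16.5 in stimulated mice (median 11.9). Its log2 fold change was -0.65 with a wide error (SE 0.41, edgeR unadjusted p = 0.122), and only 4 of 10 stimulated mice were under the control median. Without control 9 it was at -0.24. Nkx6-2 was at 5.02 to 32.3 CPM in controls (median 9.59) and at 3.60 to 12.6 in stimulated mice (median 7.14). Of the 10 stimulated mice, 7 lay under the control median and 3 under every control, and the log2 fold change was -0.68 (SE 0.29, edgeR unadjusted p = 0.0267). Nkx6-2 no longer passed an unadjusted p of 0.05 without control 9 (-0.44, p = 0.0861) or without control 11 (-0.57, p = 0.0555), in the same edgeR fit. Zfp488 was at 2.26 to 7.39 CPM in controls (median 3.37) and at 2.20 to 5.87 in stimulated mice (median 3.39), a log2 fold change of -0.06 (SE 0.23, edgeR unadjusted p = 0.787). St18 was at 1.09 to 13.1 CPM in controls (median 3.23) and at 0.984 to 3.54 in stimulated mice (median 2.27). It had the largest fitted difference of the 9, -0.95 (SE 0.35, edgeR unadjusted p = 0.0125), and 8 of 10 stimulated mice were under the control median. St18 did not pass an unadjusted p of 0.05 in limma voom (-0.55, p = 0.0952).

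**Figure D2:**
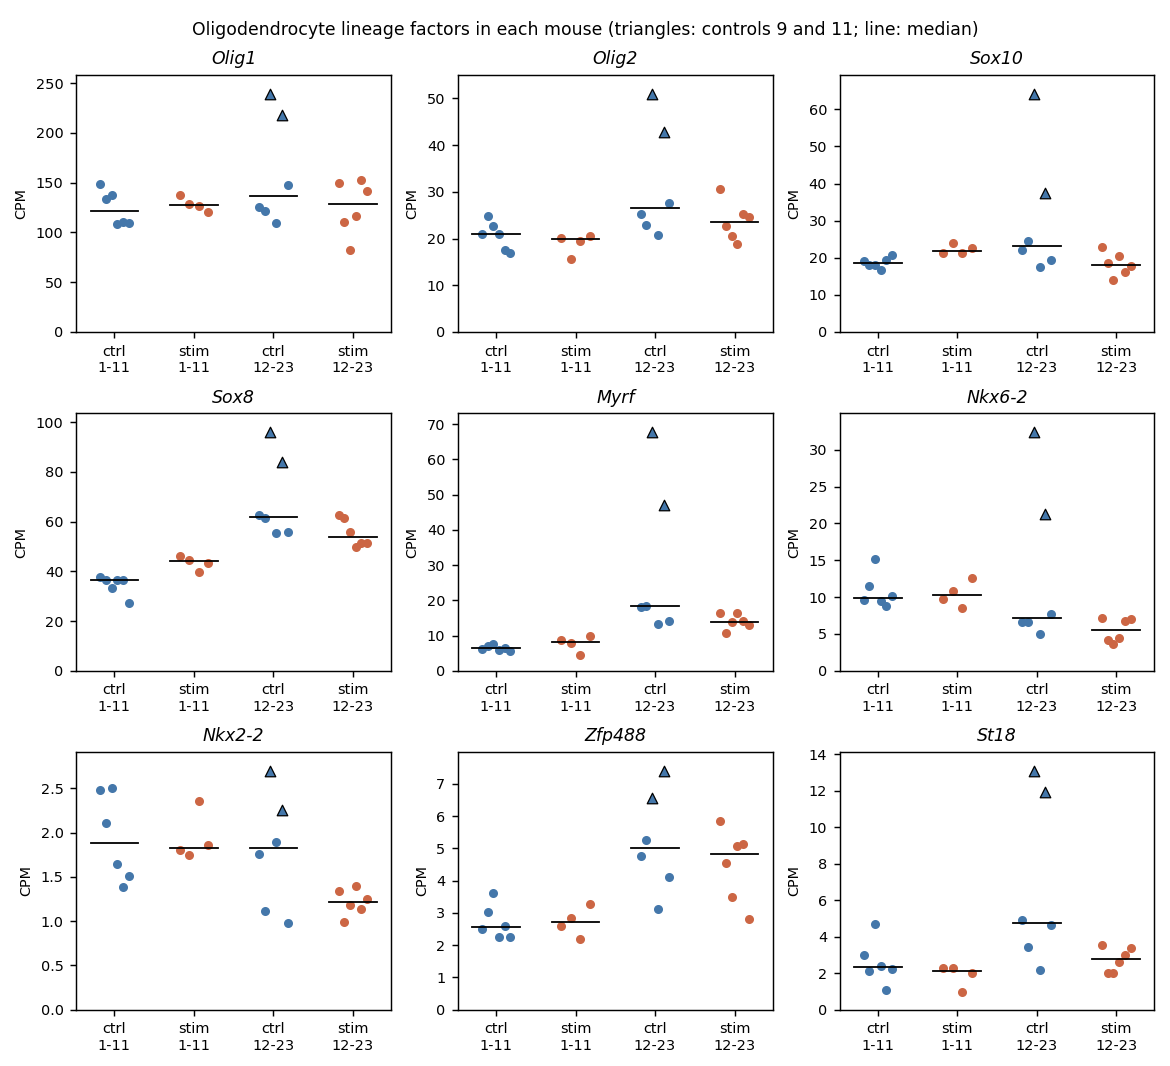
Level of each factor in every mouse in CPM (linear axes from 0), by group and run of library numbers, with a line at each group's median and triangles for controls 9 and 11. The 2 triangles are the highest values of library numbers 12 to 23 in all 9 panels, and in library numbers 1 to 11 the 4 stimulated mice lie above the 6 controls for Sox10 and Sox8.

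Controls 9 and 11 were the highest 2 mice of library numbers 12 to 23 for 9 of 9 factors, and control 9 was the highest of all 22 mice for 8 of them. Relative to the median of the other 10 mice of that run, control 9 was 4.89 times as high for Nkx6-2, 4.80 times for Myrf, 4.12 times for St18 and 3.39 times for Sox10. It was 2.21 times as high for Nkx2-2, 2.16 for Olig2, 1.93 for Olig1, 1.72 for Sox8 and 1.41 for Zfp488. In control 11 the ratios ran from 1.5 for Sox8 to 3.76 for St18. In both mice Nkx6-2, Myrf and St18 had the highest 3 ratios, and Zfp488, also a factor of differentiation, was among the lowest 2 (1.59 in control 11). The summed level of 7 neuron markers was 11216 CPM in control 9 and 12081 CPM in control 11, against 11618 to 14948 CPM in the other 10, and that of 6 astrocyte markers was 2986 and 4201 CPM against 2343 to 4352. The part of tissue composition in the difference between groups was not tested.

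Without controls 9 and 11, 4 of 9 factors had a log2 fold change below 0 (47.8% of all genes) and 0 of 9 were lower in edgeR at an unadjusted p under 0.05 (1.79% of all genes), with 0 after adjustment. In that fit St18 was at -0.35 (SE 0.24, unadjusted p = 0.170) and Nkx6-2 at -0.26 (SE 0.22, unadjusted p = 0.250) in edgeR. Sox8 was at 0.20 (SE 0.14), Zfp488 at 0.18 (SE 0.20) and Myrf at 0.17 (SE 0.26). Olig1, Olig2 and Sox10 lay between -0.012 and 0.028 (SE from 0.10 to 0.11), and Nkx2-2 was at -0.19 (SE 0.20).

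With the run as a covariate over all 22 mice, 3 of 9 factors were lower at an unadjusted p under 0.05 in edgeR, against 5.45% of all genes, and 0 after adjustment. These were St18 (-0.92, SE 0.28, unadjusted p = 0.00304), Nkx6-2 (-0.69, SE 0.28, unadjusted p = 0.0189) and Olig2 (-0.29, SE 0.13, unadjusted p = 0.0395). When controls 9 and 11 were left out of this fit as well, 4 of 9 were below 0 (45.8% of all genes) and 1, St18, was lower at an unadjusted p under 0.05 in edgeR (3.41% of all genes), at -0.45 (SE 0.22, unadjusted p = 0.0493). Olig2 was then at -0.066 (SE 0.091).

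Sox10 and Sox8 differed between the groups in opposite directions in the 2 runs, at unadjusted p-values only, and the lower values in 12 to 23 did not pass without controls 9 and 11 (Sox10 -0.22, p = 0.129, and Sox8 -0.11, p = 0.221, in edgeR). In library numbers 1 to 11, 3 of 9 factors were below 0 (48.8% of all genes) and Sox10 and Sox8 were higher in stimulated mice at an unadjusted p under 0.05, 2 of 9 against 2.21% of all genes, with 0 of 9 after adjustment in edgeR. Sox10 was at 21.3, 24.0, 21.3 and 22.6 CPM in the 4 stimulated mice and at 16.7 to 20.8 in the 6 controls (median 18.6), a log2 fold change of 0.27 (SE 0.090, edgeR unadjusted p = 0.0106, adjusted p = 0.799). Sox8 was at 46.3, 44.7, 39.7 and 43.2 CPM in the stimulated mice and at 27.2 to 37.6 in the controls (median 36.6), a log2 fold change of 0.34 (SE 0.097, edgeR unadjusted p = 0.00356, adjusted p = 0.799). For these 2 of 9 factors every stimulated mouse was above every control, which held for 0.514% of all genes. Myrf was at 8.66, 7.94, 4.43 and 9.91 CPM in the stimulated mice and at 5.72 to 7.53 in the controls. In 3 of the 4 stimulated mice Myrf lay above every control and in stimulated mouse 3 below every control, and the log2 fold change was 0.27 (SE 0.19, edgeR unadjusted p = 0.179). St18 was lowest in the same mouse, at 0.984 CPM, and at 2.0 to 2.29 CPM in the other 3 stimulated mice. Its log2 fold change was -0.45 (SE 0.35, edgeR unadjusted p = 0.225), and Olig2 was at -0.11 (SE 0.12). Olig1, Nkx6-2, Nkx2-2 and Zfp488 lay between -0.032 and 0.054.

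In library numbers 12 to 23, 9 of 9 factors were below 0 (50.0% of all genes), and 7 of 9 were lower in edgeR at an unadjusted p under 0.05, against 8.30% of all genes. None of the 9 passed adjustment in edgeR, their adjusted p-values running from 0.263 to 0.680. St18 was at 2.18 to 13.1 CPM in controls (median 4.77) and 1.99 to 3.54 in stimulated mice (median 2.81), a log2 fold change of -1.31 (SE 0.37, edgeR unadjusted p = 0.00246). Nkx6-2 was at 5.02 to 32.3 CPM in controls (median 7.15) and 3.60 to 7.20 in stimulated mice (median 5.59), a log2 fold change of -1.29 (SE 0.41, edgeR unadjusted p = 0.00595). Myrf was at 13.3 to 67.6 CPM in controls (median 18.3) and 10.7 to 16.5 in stimulated mice (median 13.9), a log2 fold change of -1.12 (SE 0.35, edgeR unadjusted p = 0.00541). For St18 and Myrf all 6 stimulated mice lay under the control median and 2 under every control, so the groups still overlapped. Sox10 (-0.79, SE 0.26), Nkx2-2 (-0.58, SE 0.25), Olig2 (-0.45, SE 0.20) and Sox8 (-0.36, SE 0.13) were lower at unadjusted p-values from 0.00837 to 0.0376 in edgeR. Olig1 (-0.39, SE 0.19, unadjusted p = 0.0621) and Zfp488 (-0.24, SE 0.21, unadjusted p = 0.267) were not, in the same edgeR fit.

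Leaving controls 9 and 11 out of library numbers 12 to 23 left 8 of 9 factors below 0 (48.2% of all genes) and 0 of 9 lower at an unadjusted p under 0.05 in edgeR (3.59% of all genes). The 4 remaining controls had 2.18 to 4.92 CPM of St18, 5.02 to 7.65 of Nkx6-2 and 13.3 to 18.4 of Myrf. St18 was then at -0.49 (SE 0.25, edgeR unadjusted p = 0.0680), Nkx6-2 at -0.25 (SE 0.21), Sox10 at -0.22 (SE 0.14), Myrf at -0.22 (SE 0.14) and Sox8 at -0.11 (SE 0.089). The plot of group differences sets these fits side by side.

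**Figure D3:**
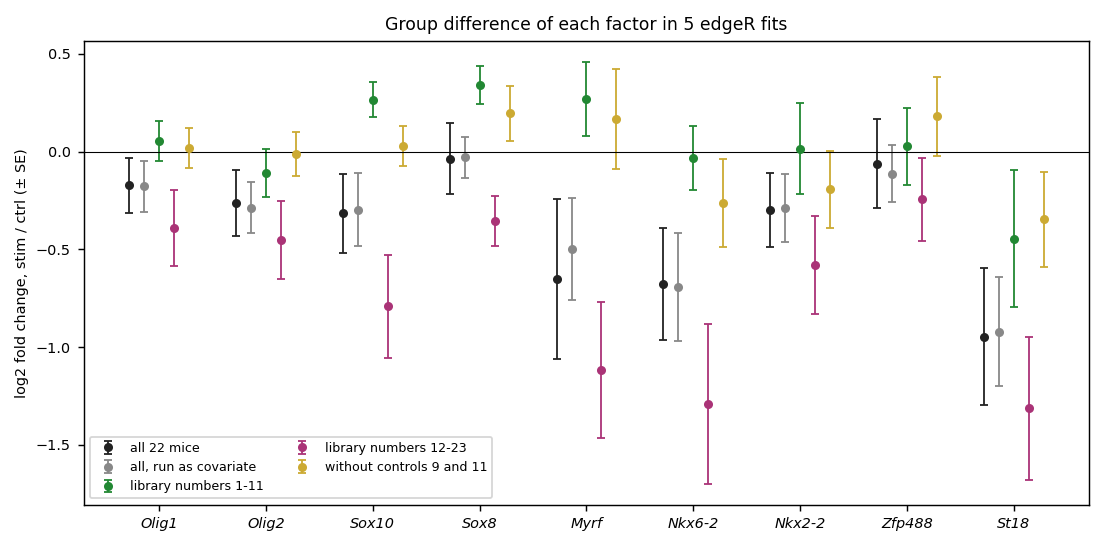
Log2 fold change of stimulated over control mice with its SE for each factor, in 5 edgeR fits marked by colour. The fit to library numbers 12 to 23 lies lowest for every factor, down to -1.31 for St18, and the fit without controls 9 and 11 lies closer to 0 than that to all 22 mice for Olig1, Olig2, Sox10, Myrf, Nkx6-2, Nkx2-2 and St18.

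The difference between the runs was itself tested, as a group by run term. It was below 0 at an unadjusted p under 0.05 for 4 of 9 factors in edgeR, against 3.23% of all genes, and for 0 after adjustment. The term was -0.65 for Sox8 (SE 0.18, unadjusted p = 0.00116, adjusted p = 0.545), -1.01 for Sox10 (SE 0.32, unadjusted p = 0.00479, adjusted p = 0.555), -1.34 for Myrf (SE 0.46, unadjusted p = 0.00725, adjusted p = 0.558) and -1.21 for Nkx6-2 (SE 0.50, unadjusted p = 0.0249, adjusted p = 0.587) in edgeR. Without controls 9 and 11 the term of Sox8 was -0.43 (SE 0.13, unadjusted p = 0.00356) and that of Sox10 -0.45 (SE 0.17, unadjusted p = 0.0134), 2 of 9 factors against 1.71% of all genes, with an edgeR adjusted p of 1.0 for each. Those of Myrf and Nkx6-2 were then -0.46 (SE 0.24) and -0.19 (SE 0.28).

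Ratios within a mouse compare a factor of differentiation, or a paralog, with Olig2 in the same library. The log2 ratio of Myrf to Olig2 averaged -0.98 ± 0.79 (SD, n = 12) over controls and -0.99 ± 0.49 (SD, n = 10) over stimulated mice, with a two-sided permutation p of 0.985. Within library numbers 1 to 11 the stimulated mice were higher by 0.32 (two-sided exact permutation p = 0.205), and within 12 to 23 their difference from controls was -0.45 (exact permutation p = 0.104). When controls 9 and 11 were left out, the difference was 0.25 over all mice (two-sided permutation p = 0.320) and -0.16 within 12 to 23 (exact permutation p = 0.448). The log2 ratio of Olig1 to Olig2 averaged 2.47 ± 0.18 (SD, n = 12) over controls and 2.53 ± 0.29 (SD, n = 10) over stimulated mice, with a two-sided permutation p of 0.546. Within the runs it was higher in stimulated mice by 0.17 (exact permutation p = 0.195) and 0.029 (exact permutation p = 0.797), the latter at -0.0032 without the same 2 controls (exact permutation p = 0.971). Of these 2 ratios the paralog ratio had the smaller spread over all 12 controls. Within library numbers 12 to 23 its SD over controls was 0.0723, against 0.503 for Myrf to Olig2. Within 1 to 11 the SDs were close, at 0.169 and 0.162 in the same order.

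How far the factors moved together over mice was examined within each run, since the expression of most genes differed between the runs. In library numbers 12 to 23 (12 mice), the 36 pairs had a median Pearson's r of 0.837 (from 0.410 to 0.965) and a median Spearman's rho of 0.608, and 33 pairs by Pearson and 12 by Spearman passed an adjusted permutation p of 0.05. Nkx6-2 and St18 had r = 0.965 (permutation p = 2.00e-05, adjusted p = 0.00036) and rho = 0.881 (permutation p = 0.00044, adjusted p = 0.00634), and r = 0.859 without controls 9 and 11, the 2 mice farthest from the median. Olig2 and Nkx6-2 had r = 0.963 (permutation p = 2.00e-05, adjusted p = 0.00036) and rho = 0.930 (permutation p = 4.00e-05, adjusted p = 0.00288), and r = 0.794 without the same mice. Olig1 and Olig2 had r = 0.919 (permutation p = 1.00e-05, the smallest that these permutations can give, adjusted p = 0.00036) and rho = 0.902 (permutation p = 0.00015, adjusted p = 0.0036), and r = 0.747 without these 2 controls. Sox10 and Myrf had r = 0.950 (permutation p = 0.00012, adjusted p = 0.00165) and rho = 0.846 (permutation p = 0.00095, adjusted p = 0.0114), and r = 0.666 without these 2 controls. Without controls 9 and 11 the median r over the 36 pairs was 0.344, so the high values over the run rested largely on these 2 mice.

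In library numbers 1 to 11 (10 mice), the median r over the 36 pairs was 0.365 (from -0.653 to 0.897) and the median rho 0.327, and 4 pairs by Pearson and 2 by Spearman passed an adjusted permutation p of 0.05. Nkx6-2 and Zfp488 had the highest value, r = 0.897 (permutation p = 0.00049, adjusted p = 0.00321) and rho = 0.806 (permutation p = 0.00718, adjusted p = 0.0398), with r = 0.701 without the 2 mice farthest from the median of Nkx6-2. Olig2 and Sox10 had the lowest, r = -0.653 (permutation p = 0.0402, adjusted p = 0.0743) and rho = -0.685 (permutation p = 0.0351, adjusted p = 0.113), with r = -0.376 without the 2 mice farthest from the median of Olig2. Adjustment was over the 72 values of both runs. Mice of both groups enter each value, and CPM of different genes share the library they come from.

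**Figure D4:**
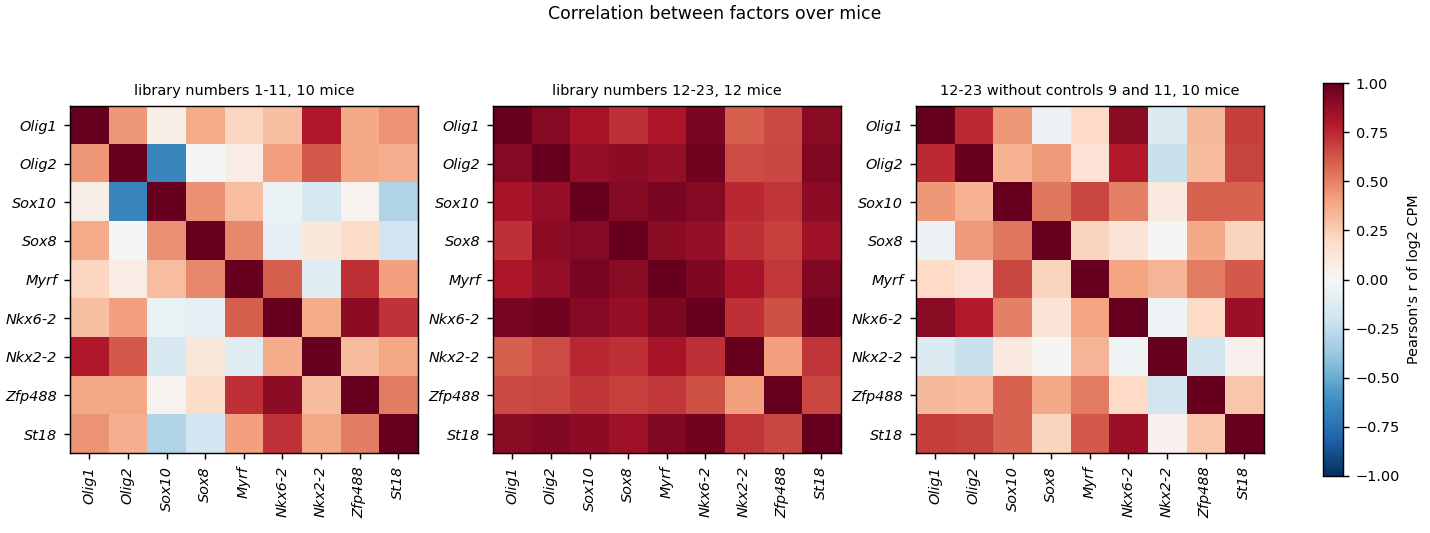
Pearson's r of log2 CPM between each 2 factors over mice, within library numbers 1 to 11 (left), within 12 to 23 (middle) and within 12 to 23 without controls 9 and 11 (right); red is positive and blue negative. The median over 36 pairs is 0.365, 0.837 and 0.344 in turn.

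For 8 of the factors the 2 genes outside the set with the most similar pattern are given over the 22 mice, by Pearson's r of log2 CPM after the mean of each group within each run had been subtracted. Nkx6-2 had the closest neighbours, the myelin genes Mal (r = 0.974, rho = 0.962) and Trf (r = 0.973, rho = 0.962), at 0.906 and 0.904 without controls 9 and 11. Olig1 was closest to Sirt2 (r = 0.946, 0.901 without the 2 controls) and Serpinb1a (r = 0.945, 0.887), and Sox10 to Sept4 (r = 0.938, 0.649) and Cnp (r = 0.931, 0.602). Olig2 was closest to Gjc3 (r = 0.907, 0.733) and Mal (r = 0.906, 0.744), and Sox8 to Ccp110 (r = 0.900, 0.712) and Desi1 (r = 0.846, 0.519). St18 was closest to Rcbtb1 (r = 0.890, 0.781) and Gjc3 (r = 0.884, 0.773). Nkx2-2 was closest to Micu2 (r = 0.797, 0.650) and Rcbtb1 (r = 0.795, 0.646), and Zfp488 to C1ql2 (r = 0.780, 0.750) and Otud7b (r = 0.773, 0.722). The median r with the 17 myelin and mature oligodendrocyte genes was 0.935 for Nkx6-2, 0.911 for Myrf, 0.880 for Sox10, 0.848 for Olig2, 0.825 for Olig1, 0.816 for St18, 0.740 for Sox8, 0.638 for Zfp488 and 0.572 for Nkx2-2. Without controls 9 and 11 it was 0.750 for Nkx6-2, 0.670 for St18, 0.585 for Olig1, 0.557 for Myrf, 0.485 for Olig2, 0.481 for Zfp488, 0.431 for Sox10, 0.0951 for Sox8 and 0.0618 for Nkx2-2. In the same 20 mice the median r of Olig1 was 0.760 with the 6 astrocyte markers and 0.720 with the 6 microglia markers, and that of Olig2 was 0.582 and 0.574, all above their values with the myelin genes. Over all 22 mice these were below their values with the myelin genes, at 0.491 and 0.383 for Olig1 and 0.331 and 0.220 for Olig2. Without the 2 controls, Nkx2-2 was also closer to the astrocyte (0.345), microglia (0.265) and endothelial markers (0.117) than to the myelin genes. The same held for 12 regulators of the progenitor state and inhibitors of differentiation (0.106). For Sox8 those regulators (0.289), the astrocyte markers (0.188) and the progenitor and newly formed oligodendrocyte genes (0.181) exceeded the myelin genes.

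The other genes of the pathway were described by the same fit. Of the 17 myelin and mature oligodendrocyte genes downstream of the factors, 17 had a log2 fold change below 0 (47.5% of all genes), with a median of -0.697. For 16 the unadjusted p was under 0.05 in edgeR, against 2.61% of all genes, with 0 after adjustment. Mobp, a protein of compact myelin, was at -0.96 (SE 0.32, edgeR unadjusted p = 0.00649), and Ugt8a, an enzyme of myelin lipid synthesis, at -0.89 (SE 0.31, edgeR unadjusted p = 0.00875). Without controls 9 and 11 all 17 were still below 0 (47.8% of all genes) but 0 at an unadjusted p under 0.05. Their median was -0.142, whereas the factors had a median of 0.0177 in that fit. In library numbers 1 to 11, 8 of 17 were below 0, near the 48.8% of all genes, with an unadjusted p under 0.05 for 0 of 17. Within 12 to 23, 17 of 17 were lower in edgeR at an unadjusted p under 0.05, against 8.30% of all genes, with a median of -1.30. In that run without controls 9 and 11, 7 of 17 were, against 3.59% of all genes, with a median of -0.292 and 0 after adjustment. The 9 factors had 0 of 9 and a median of -0.215 in the same fit.

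Of 7 progenitor and newly formed oligodendrocyte genes, 6 were below 0 (47.5% of all genes) and 2 lower at an unadjusted p under 0.05 (2.61% of all genes), with 0 after adjustment in edgeR. These 2 were Enpp6 (-0.85, SE 0.29, edgeR unadjusted p = 0.00795) and Bcas1 (-0.82, SE 0.31, edgeR unadjusted p = 0.0128), both genes of newly formed oligodendrocytes, and 0 of the 7 were at an unadjusted p under 0.05 without controls 9 and 11. Of 15 partners and cofactors of differentiation, 8 were below 0 and 1 lower at an unadjusted p under 0.05, against the same 2.61%. This was Tcf7l2, a partner in differentiation that mediates Wnt signalling (-0.25, SE 0.12, edgeR unadjusted p = 0.0457), and the chromatin remodeller Chd7 came next (-0.25, SE 0.14, edgeR unadjusted p = 0.0756). When controls 9 and 11 were left out, Tcf7l2 was at -0.24 (SE 0.13, edgeR unadjusted p = 0.0783) and Chd7 at -0.13 (SE 0.12), so that 0 of the 15 were at an unadjusted p under 0.05. Of 12 regulators of the progenitor state and inhibitors of differentiation, 9 were below 0 and 0 at an unadjusted p under 0.05. Id4, which sequesters helix-loop-helix partners, was at -0.32 (SE 0.16, edgeR unadjusted p = 0.0558), and Sox5, which opposes Sox10, at -0.12 (SE 0.071, edgeR unadjusted p = 0.0959). In the fit without controls 9 and 11, Id4 was at -0.37 (SE 0.17, edgeR unadjusted p = 0.0372, adjusted p = 1.0), the 1 of these 12 genes at an unadjusted p under 0.05 (1.79% of all genes were lower), and Sox5 was at -0.087 (SE 0.076).

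Markers of other cell types were read in the same fit. All 7 neuron markers and all 6 markers of striatal neurons were above 0, and all 6 astrocyte markers were below 0 (47.5% of all genes). Of these markers, 0 were at an unadjusted p under 0.05 in edgeR or passed adjustment. Leaving out controls 9 and 11, 7 of 7 neuron markers and 5 of 6 markers of striatal neurons were above 0. In that fit 4 of 6 astrocyte markers were below 0 (47.8% of all genes), and again 0 of these markers were at an unadjusted p under 0.05 in edgeR. The summed neuron markers ranged from 8672 to 14225 CPM in controls and from 8825 to 14948 CPM in stimulated mice, and the summed astrocyte markers from 2016 to 4201 and from 2264 to 4352 CPM. Of 6 microglia markers 2 were below 0 and of 5 endothelial markers 3, with 0 at an unadjusted p under 0.05. Of 5 choroid plexus markers 3 passed the count minimum, and Ttr, the leading transcript of that tissue, was at -1.86 (SE 0.59, edgeR unadjusted p = 0.00442, adjusted p = 1.0) and at -1.91 (SE 0.63) without controls 9 and 11. Of the other 2, Kcnj13 was at 0.29 (SE 0.41), and the median of the 3 was -0.0813. Their summed level ranged from 6.99 to 131.7 CPM in controls (median 16.1), the highest being in a control of library numbers 1 to 11, and from 5.48 to 16.9 CPM in stimulated mice (median 12.7). The part of these cell types in the values of the 9 factors was not tested.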

How the data were processed

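RNA from bulk ACC was sequenced in 22 mice. Reads were trimmed with cutadapt 1.10, aligned to mm10 with STAR 2.5.3a and counted per gene with HTSeq 0.6.1p1. The authors deposited whole-number counts, the values tested here, and the same counts divided by size factors as a normalized signal, which was not used. The authors' own comparison, with DESeq2 1.22.1 and RNA integrity and batch as covariates, was not used either. Those covariates are not in the labels used here. The study gives them in a supplementary table, which was not used.

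Counts were fitted in edgeR 4.0.16 (R 4.3.3; TMM, quasi-likelihood, group only) over the 17524 genes that reached 10 counts in 10 or more mice, and p-values were adjusted by Benjamini-Hochberg. A standard error is the log2 fold change over the square root of F. CPM (counts per 1000000 of the library total) were TMM-scaled, and log2 CPM had a prior count of 2. Alternatives used limma 3.58.1, DESeq2 1.42.0 and sva 3.50.0. On simulated data for stimulated against control mice (17462 genes), the edgeR fit recovered 36.1% of 1.5-fold and 64.6% of 2-fold changes. With the run as a covariate it recovered 70.1% and 90.9%, and 5.39% of its calls were false, against 0.00%. Ratios and correlations used permutations (100000, or exact). Identifiers were matched to GENCODE M21 (37772 of 37786). No 2 libraries agreed within sampling noise, and p-values measure the spread between mice.

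The factors, the gene lists and the tests were chosen with earlier results of these data known. Beyond the 9 factors, genes were named if they were among the 2 most correlated with a factor or the 2 with the smallest unadjusted p in a list. Ttr was named by that rule. The genes most correlated with Myrf are not reported here. The fits that leave out controls 9 and 11 together with the run covariate, or within library numbers 12 to 23, were chosen after seeing the data. Controls 9 and 11 were themselves picked from these same counts, so every fit without them depends on the data.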

Additional observations from a re-analysis of the deposited data

Results flagged for a closer look

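Of 45 groups of values of a factor, 5 had a mouse that stood apart by Dixon's criterion, which chance alone gives in about 1 in 20 groups. The criterion was applied to log2 CPM, and the ratio of the gap to the range on that scale is given for each. Olig1 was lowest in stimulated mouse 7 (82.0 CPM, 0.478 among the 10 stimulated mice). Olig2 was lowest in stimulated mouse 2 (15.7 CPM, 0.833 among the 4 stimulated mice of library numbers 1 to 11). Sox8 was lowest in control 6 (27.2 CPM, 0.640 among the 6 controls of library numbers 1 to 11). St18 was lowest in stimulated mouse 3 (0.984 CPM), at 0.839 among the 4 stimulated mice of library numbers 1 to 11. St18 was also flagged among all 10 stimulated mice, at 0.544. The high values of controls 9 and 11 did not meet the criterion, in which 2 mice that are high together hide each other.

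The group effect differed between the runs of library numbers at an unadjusted p under 0.05 for 4 of 9 factors, all with a term below 0, against 3.23% of all genes, with 0 after adjustment in edgeR. The log2 term was -0.647 for Sox8, -1.01 for Sox10, -1.34 for Myrf and -1.21 for Nkx6-2. Only the terms of Sox8 and Sox10, among these 4, were also at an unadjusted p under 0.05 without controls 9 and 11, where 1.71% of all genes were lower.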

How the results depend on the processing

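No alternative gave a factor an adjusted p under 0.05. In every fit that leaves out 1 mouse, 7 to 9 factors were below 0, 1 to 3 were at an unadjusted p under 0.05 and 471 to 909 genes were, against 9, 2 and 632 over all mice. The 2 fell to 1 without control 9 and without control 11. In these fits Sox8 ranged from -0.097 to 0.080 and Zfp488 from -0.15 to 0.056, and the log2 ratio of Myrf to Olig2 from -0.093 to 0.12. Without control 9, Myrf was at -0.24, Sox10 at -0.090, Olig2 at -0.13 and Olig1 at -0.080, each over 1.5 times closer to 0 than over all mice, as were Myrf (-0.43) and Olig1 (-0.10) without control 11. DESeq2 size factors, the DESeq2 test, both other count minimums, the run as a covariate and the run with 1 surrogate variable reversed 0 of 9 factors.

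With limma voom 1 factor and 1857 genes were at an unadjusted p under 0.05, with Sox8 at 0.097, Zfp488 at 0.14, Myrf at -0.10 and St18 at -0.55. With no count minimum 2371 genes were, with the run as a covariate 2015, and with a surrogate variable added 3503, of which 66 passed adjustment. In library numbers 1 to 11, 974 genes and 3 factors below 0 were found, with Olig1 at 0.054, Sox10 0.27, Sox8 0.34, Myrf 0.27, Nkx2-2 0.015, Zfp488 0.027 and the ratio of Myrf to Olig2 at 0.32. In library numbers 12 to 23, 2165 genes and 7 factors were at an unadjusted p under 0.05. Without controls 9 and 11, 4 factors were below 0 and 0 at an unadjusted p under 0.05, with Olig1 at 0.018, Sox10 0.028, Sox8 0.20, Myrf 0.17, Zfp488 0.18 and the ratio at 0.25, and 2 factors differed between runs in place of 4. With the run as a covariate as well, these were 4 and 1 with 1430 genes, and Olig1 0.023, Sox10 0.041, Sox8 0.13, Myrf 0.036 and Zfp488 0.043. Within 12 to 23 without these controls 0 factors were at an unadjusted p under 0.05, Zfp488 was at 0.030 and the ratio of Olig1 to Olig2 at -0.0032. The cause of these changes was not tested, beyond the mice left out.

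The replicate numbers did not pair the mice: deviations of same-numbered mice correlated at 0.308 on average, against -0.0401 for other numbers, with 8 of 10 pairs over 0.1 and 3 mice closest to their own number. Centred within runs, the mean over same-numbered mice was 0.0511. With the replicate number as a block, 1 factor, Nkx6-2 (-0.51), and 1291 genes were at an unadjusted p under 0.05, Sox8 was at 0.15, Myrf at 0.019, Zfp488 at 0.095 and St18 at -0.45 (edgeR unadjusted p = 0.171), and the paired difference of the Myrf to Olig2 ratio was 0.11. The least abundant factors, with medians of 53.5 counts for Nkx2-2 and 82.0 for St18, have the widest counting error.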
